A study of Rattus norvegicus with 30 samples.

Results

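The insulin receptor, its adaptor and inhibitor, 2 FoxO transcription factors and 5 genes known as FoxO targets or as genes that insulin lowers were followed in stomach, jejunum and colon of rats given irinotecan. The 10 genes are Insr, Irs2, Pik3ip1, Foxo1, Foxo3, Bcl6, Depp1, Txnip, Arrdc3 and N4bp2l1. They were chosen as genes that were already high 1 h after the dose or that belong to the FoxO and insulin pathway, so the difference between 1 h and 0 h chose some of them and is described here without a test. Each is represented by the brightest of its probe sets, by the mean of all 30 arrays, among probe sets that the platform annotation gives exactly 1 gene symbol. All 10 were measured, by 17 probe sets in all, out of 14217 genes and 31042 probe sets tested.

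Female DA rats, 10 weeks old, received 1 intraperitoneal dose of irinotecan (200 mg/kg) under light halothane and were killed 1, 6, 24 or 72 h later; rats of the 0 h group were untreated. Irinotecan is a chemotherapy prodrug whose active product traps topoisomerase I on DNA. All rats were housed singly with food and water always available, and the sources used here do not state whether the 0 h rats were anaesthetised or sham injected. RNA of whole-wall sections from 3 rats was combined for each array. The 15 groups of tissue and time had 2 such pools each, so there were 30 arrays from 30 rats (6 at each time), and the same 6 rats gave all 3 tissues.

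Insulin binds its receptor, which phosphorylates adaptor proteins such as Irs2; these recruit phosphoinositide 3-kinase, which leads to activation of the kinase Akt. Akt phosphorylates the FoxO factors and keeps them out of the nucleus. When insulin is low, as in fasting, FoxO factors enter the nucleus and switch on their targets, among them Irs2 and the insulin receptor itself. FoxO activity is set mainly by phosphorylation, which an array does not measure.

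Values are log2 signals, and a level is compared only between arrays for the same probe set. The tissues carried their own markers on every array: the median of 4 gastric genes was 13.45 to 13.80 in stomach arrays, the median of 4 enterocyte genes 13.04 to 13.44 in jejunum arrays and the median of 3 colonocyte genes 11.99 to 12.69 in colon arrays. Some arrays stood apart. The median of 6 pancreatic acinar genes was 13.56 on one stomach array and 12.62 on one colon array at 72 h, against 6.89 and 6.96 in untreated stomach and 6.89 and 6.12 in untreated colon, and it was 9.34 on one colon array at 6 h. The gastric median was 9.78 on one colon array at 24 h. The 3' signal of GAPDH, a sign of RNA breakdown when it exceeds the 5' signal, lay 0.82 above it on one jejunum array at 24 h and 0.56 on one stomach array at 24 h, against at most 0.38 on the others. With 2 arrays in each group the number of arrays limits every statement here, and p-values measure the spread between pools.

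At 1 h after the dose, the time that helped to choose the genes, Txnip stood highest among them in jejunum and stomach. Txnip binds thioredoxin and curbs glucose uptake; its gene lies at chr2:186781933-186785736 on the GRCr8 assembly. It read 11.64 and 11.91 in jejunum at 1 h, against 10.87 and 10.61 at 0 h, and 13.00 and 12.82 in stomach at 1 h, against 12.02 and 12.14 at 0 h. In colon the 1 h arrays read 12.71 and 13.00, against 12.71 and 12.58. The 1 h arrays thus lay above both untreated arrays in jejunum and stomach and met them in colon.

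Arrdc3 and Bcl6 were also high at 1 h in jejunum. Arrdc3, an alpha-arrestin that controls traffic of beta-adrenergic receptors, differed from 0 h by 0.86 on the log2 scale in jejunum, 0.47 in stomach and -0.02 in colon. Bcl6, a zinc-finger repressor best known from germinal centre B cells, differed by 0.58, 0.32 and -0.08. N4bp2l1, whose function is little known, differed by 0.74 in jejunum and by -0.12 and -0.02 in stomach and colon. Depp1, a small protein that FoxO3 switches on in human cells and that takes part in autophagy, read 8.10 and 7.79 in colon at 1 h, against 7.15 and 7.07 at 0 h. Irs2 also lay above both untreated colon arrays at 1 h, by 0.20. The differences of Depp1 were 0.84 in colon, 0.52 in stomach and 0.31 in jejunum.

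Over the 10 genes the median difference between 1 h and 0 h was 0.36 in stomach, 0.33 in jejunum and 0.02 in colon, beside 0.00, 0.00 and 0.02 over all probe sets. Both 1 h arrays lay above both 0 h arrays for 7 genes in stomach, 7 in jejunum and 2 in colon, beside 21.3%, 18.4% and 29.8% of all probe sets. Since the genes were partly chosen on this contrast, nothing is read from these counts. The plot of every array by time gives all values.

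**Figure D1:**
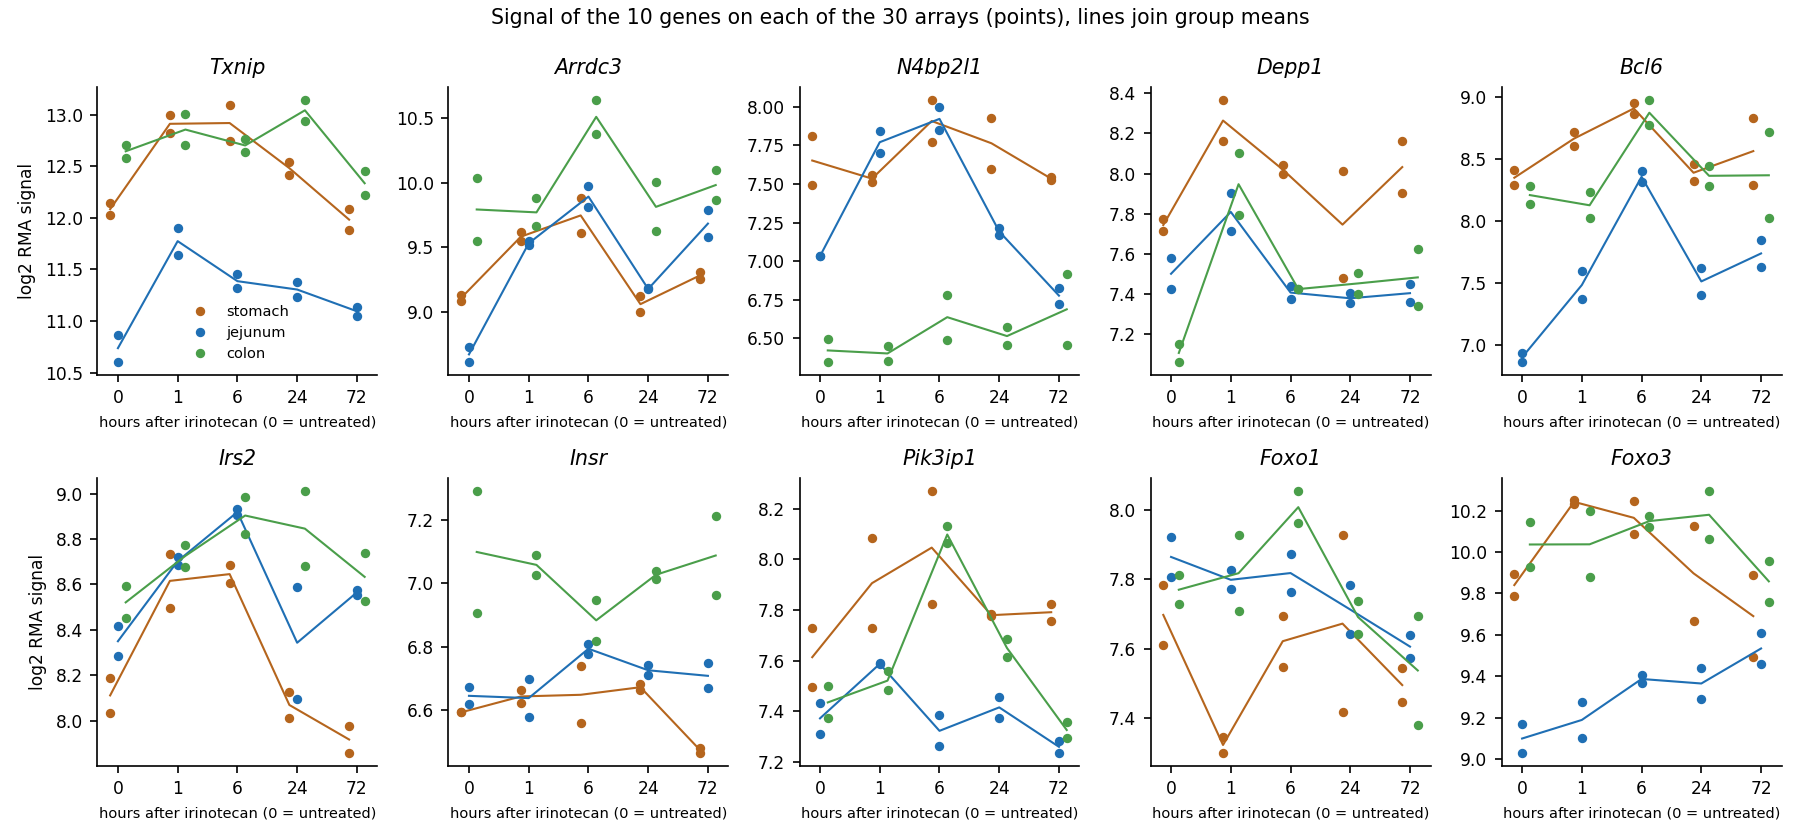
Log2 RMA signal (y axis) of the 10 genes on each of the 30 arrays against hours after irinotecan (x axis, evenly spaced; 0 is untreated), in stomach, jejunum and colon; points are arrays and lines join the means of 2 arrays. In jejunum Arrdc3 and Bcl6 were lowest at 0 h and highest at 6 h, and Txnip was lower in jejunum than in the other tissues at every time.

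At 6 h after the dose 4 of the 10 genes were higher in jejunum than in untreated jejunum by limma's test: Bcl6, Arrdc3, N4bp2l1 and Txnip. No member was lower. Of all 31042 probe sets 2.3% were called higher and 1.19% lower in this comparison. The 0 h arrays are the ones also used in the 1 h difference, so these calls are not independent of the choice of genes. The tissue was taken whole, so a change in the share of a cell type cannot be told apart from a change of RNA per cell, here and in every comparison that follows.

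Bcl6 (chr11:90358753-90382049) read 8.40 and 8.31 in jejunum at 6 h, against 6.86 and 6.93 at 0 h. The groups lay far apart, and the fold change was 2.75 (log2 1.46 ± 0.12 (SE, n = 2 arrays each), limma adjusted p = 0.00202). B cells carry Bcl6, and the median of 4 measured B cell markers was 6.26 and 6.22 at 6 h, against 6.41 and 6.45 at 0 h, with 0 of the 4 called by limma and 1 past an unadjusted p of 0.05. Of all 31042 probe sets 6189 passed that unadjusted threshold in this comparison. The B cell medians all lay below 7.03, the median over all probe set means, so these markers were dim. The part of B cells in the value of Bcl6 was not tested.

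Arrdc3 (chr2:12873202-12885716) read 9.81 and 9.97 at 6 h, against 8.73 and 8.62 at 0 h. That is 2.33-fold (log2 1.22 ± 0.10 (SE), limma adjusted p = 0.00202), with no overlap of arrays. Its second probe set gave log2 0.89 (adjusted p = 0.0359 by limma). The calls of Bcl6 and Arrdc3 held when any of the 4 arrays was left out.

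N4bp2l1 (chr12:4938199-4965003) read 7.85 and 8.00 at 6 h, against 7.03 and 7.03 at 0 h, or 1.85-fold (log2 0.89 ± 0.09 (SE), limma adjusted p = 0.00388). The untreated arrays were equal to 2 decimals. The call was lost without untreated replicate 1 or without 6 h replicate 2 (highest adjusted p = 0.0582 by limma). Txnip read 11.32 and 11.46 at 6 h, against 10.87 and 10.61 at 0 h, or 1.57-fold (log2 0.65 ± 0.12 (SE), limma adjusted p = 0.026). Leaving out any one of its 4 arrays lost the call, with adjusted p of 0.0948 to 0.189 by limma, and a fit with the replicate number as a block gave 0.0511.

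The other 6 genes did not pass at 6 h in jejunum. Irs2, the adaptor, came nearest with 8.93 and 8.90 at 6 h, against 8.42 and 8.28 at 0 h, a log2 difference of 0.57 (limma adjusted p = 0.0606); 1 limma fit of all 30 arrays gave 0.03. Foxo3 differed by 0.29, Insr by 0.15, Foxo1 by -0.05, Pik3ip1 by -0.05 and Depp1 by -0.09. The median over the 10 genes was 0.43, beside -0.02 over all probe sets.

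**Figure D2:**
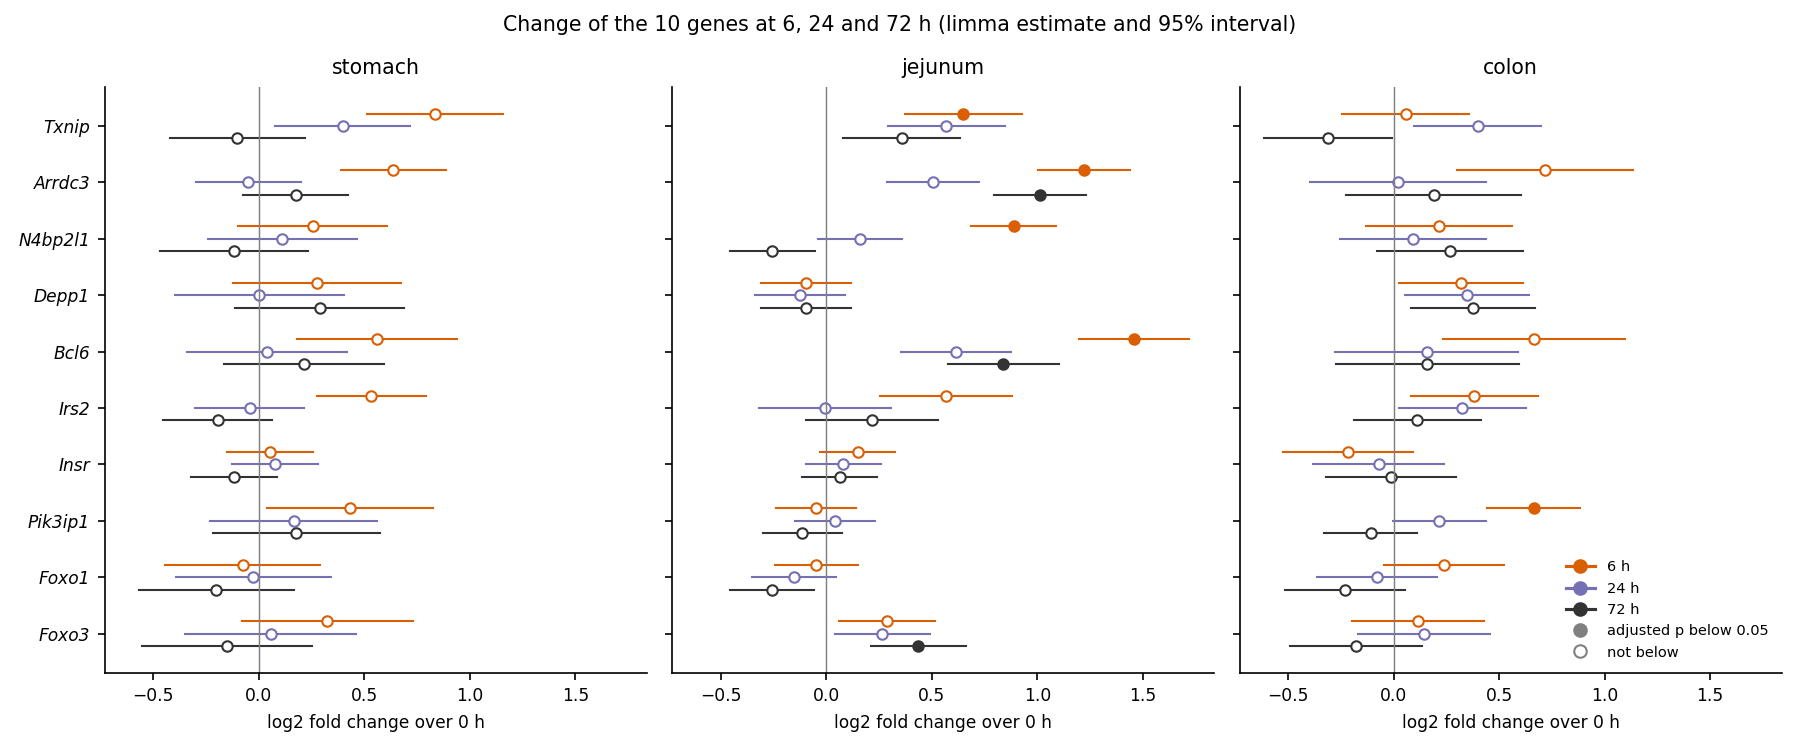
Log2 fold change over 0 h (x axis) of each gene (y axis) at 6, 24 and 72 h, one panel for each tissue; points are limma estimates, lines their 95% intervals without adjustment, and filled points have an adjusted p below 0.05. Filled points were 7 in jejunum, 1 in colon and 0 in stomach.

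The promoters of Bcl6, Arrdc3 and N4bp2l1 are shown because these 3 genes were higher together in jejunum at 6 h. RefSeq's promoter table on GRCr8 held 7 of the 10 genes, not Txnip, Irs2 and Foxo3. Both strands of the 300 bases from 250 before to 50 after each start site were searched for the FoxO core GTAAACA, the insulin response letters TGTTTTG and TATTTTG, and the E-box CACGTG, around which the carbohydrate response element of the glucose-sensing factors MondoA and ChREBP is built. No match overlapped another. Each stretch below gives only the 250 bases before the start site, 5′ to 3′ on the gene's strand, in lower case with any match in capitals. The windows are chr11:90358503-90358752 (plus strand) for Bcl6, chr2:12872952-12873201 (plus strand) for Arrdc3 and chr12:4962570-4962819 (minus strand) for N4bp2l1.
Bcl6: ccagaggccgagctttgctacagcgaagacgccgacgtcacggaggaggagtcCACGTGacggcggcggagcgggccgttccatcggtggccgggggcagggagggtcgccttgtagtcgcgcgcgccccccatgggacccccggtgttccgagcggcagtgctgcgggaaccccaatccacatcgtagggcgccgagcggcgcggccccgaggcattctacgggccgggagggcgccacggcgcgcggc
Arrdc3: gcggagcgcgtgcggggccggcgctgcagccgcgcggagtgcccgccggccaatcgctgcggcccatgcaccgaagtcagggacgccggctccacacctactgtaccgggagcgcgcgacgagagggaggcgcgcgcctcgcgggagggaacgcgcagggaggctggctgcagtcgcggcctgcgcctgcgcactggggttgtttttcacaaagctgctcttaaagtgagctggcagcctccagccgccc
N4bp2l1: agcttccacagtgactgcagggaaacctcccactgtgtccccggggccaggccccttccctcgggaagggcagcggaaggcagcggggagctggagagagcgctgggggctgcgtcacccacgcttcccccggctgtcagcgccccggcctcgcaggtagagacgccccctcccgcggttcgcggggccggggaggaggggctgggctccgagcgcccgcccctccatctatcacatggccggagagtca
The Bcl6 window held 1 E-box, 197 bases before the start site, and the windows of Arrdc3 and N4bp2l1 held none of the 4 motifs. E-boxes of these letters stood in 6.42% of all 33469 promoters of the same length.

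FoxO letters were found in the insulin receptor's promoter and next to the start site of Pik3ip1, and insulin response letters in that of Depp1. Insr, at chr12:6128804-6129053 (minus strand), held GTAAACA on the strand opposite to the gene, 100 bases before the start site. Depp1, at chr4:151583121-151583370 (plus strand), held TATTTTG 88 bases before its start site. These are the 2 members with such letters upstream, and their capitals mark them (in Insr as the reverse complement).
Insr: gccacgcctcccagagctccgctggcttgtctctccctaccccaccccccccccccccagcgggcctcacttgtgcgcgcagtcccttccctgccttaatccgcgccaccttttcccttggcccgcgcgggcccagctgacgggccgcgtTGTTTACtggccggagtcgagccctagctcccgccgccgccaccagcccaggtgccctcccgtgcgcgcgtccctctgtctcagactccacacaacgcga
Depp1: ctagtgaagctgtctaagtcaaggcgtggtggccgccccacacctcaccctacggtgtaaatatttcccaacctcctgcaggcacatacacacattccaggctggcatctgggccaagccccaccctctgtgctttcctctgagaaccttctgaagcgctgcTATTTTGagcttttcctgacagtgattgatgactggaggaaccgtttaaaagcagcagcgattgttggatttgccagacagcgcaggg
GTAAACA stood in 3.78% of all promoters and TATTTTG in 4.96%, while TGTTTTG, present in 6.28%, was in none of the 7. A match describes letters in a window and not a bound site. For N4bp2l1, Insr and Depp1 the start site in RefSeq's table lies inside the annotated gene, so these windows overlap it.

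At 24 h no member was called in jejunum, beside 0.409% of all probe sets. At an unadjusted p under 0.05, 4 members passed, beside 4966 of all 31042 probe sets. Bcl6 differed from 0 h by 0.61 (7.40 and 7.62 at 24 h, against 6.86 and 6.93), Txnip by 0.57 and Arrdc3 by 0.51, with limma adjusted p of 0.0667, 0.0891 and 0.067. Without the 24 h array that had the high GAPDH gap (replicate 1) the differences of Bcl6, Txnip and Arrdc3 were 0.72, 0.64 and 0.50. Without replicate 2 they were 0.51, 0.49 and 0.51. Each of these fits leaves 1 array at 24 h, so no call is read from them.

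Set against 6 h rather than 0 h, 3 genes were lower at 24 h in jejunum: Bcl6, N4bp2l1 and Arrdc3. The difference itself uses neither the 0 h nor the 1 h arrays, though both enter limma's estimate of the spread, and 0.454% of all probe sets were called lower in it. N4bp2l1 read 7.17 and 7.22 at 24 h, against 7.85 and 8.00 at 6 h, and fell by 0.73 on the log2 scale (SE 0.09, limma adjusted p = 0.014). Arrdc3 read 9.18 and 9.17, against 9.81 and 9.97, and fell by 0.71 (SE 0.10, limma adjusted p = 0.0184). Bcl6 fell by 0.85 (SE 0.12, limma adjusted p = 0.0191). In all 3 both later arrays lay below both earlier arrays, and all 3 calls were lost without either of the 6 h arrays (0 called). Txnip differed by -0.08, with arrays that overlapped.

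At 72 h Arrdc3, Bcl6 and Foxo3 were higher in jejunum than in untreated jejunum. By then 23.9% of all probe sets were called, 11.9% higher and 12% lower, so 3 of 10 genes stands close to the background. Arrdc3 read 9.58 and 9.79 at 72 h, against 8.73 and 8.62 at 0 h, or 2.02-fold (log2 1.01 ± 0.10 (SE), limma adjusted p = 0.000679). Bcl6 read 7.63 and 7.84, against 6.86 and 6.93, or 1.79-fold (log2 0.84 ± 0.12 (SE), limma adjusted p = 0.00235). Both held on leaving out any array of the comparison.

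Foxo3, one of the FoxO factors itself (chr20:47251968-47348254), read 9.61 and 9.46 at 72 h, against 9.03 and 9.17 at 0 h. It was 1.35-fold higher (log2 0.44 ± 0.10 (SE), limma adjusted p = 0.0168), but the call was lost without either untreated array, without 72 h replicate 1 and after quantile normalization (adjusted p = 0.082). Its much dimmer second probe set differed by -0.01. Foxo1 differed by -0.26 (7.64 and 7.57 at 72 h, against 7.81 and 7.92; limma adjusted p = 0.0614) and passed only after quantile normalization, at -0.37 (adjusted p = 0.0213 by limma).

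Other cell types moved with the 72 h values. Of 5 smooth muscle markers 3 were called higher in jejunum at 72 h and 0 lower, with array medians of 11.30 and 11.55 at 72 h, against 10.12 and 10.29 at 0 h. Of 4 macrophage markers 2 were called higher, with medians of 7.47 and 7.56, against 6.71 and 6.72. The endothelial medians were 7.65 and 7.53 at 72 h, against 7.05 and 6.89, with 0 of 4 markers called by limma (2 at an unadjusted p under 0.05). Of 3 colonocyte markers 2 were called lower, with medians of 6.82 and 6.90 at 72 h, against 7.68 and 7.44. In addition 1 of 4 adipocyte markers was called higher, and 1 of 4 enterocyte and 2 of 6 pancreatic acinar markers lower. The part of these cell types in the higher Arrdc3, Bcl6 and Foxo3 was not tested. At 6 h the smooth muscle medians were 10.87 and 10.94, and limma called 0 of 5 markers (2 at an unadjusted p under 0.05). The macrophage medians at 6 h were 6.51 and 6.55, below the untreated ones. Of these 4 markers limma called 0 at 6 h (4 at an unadjusted p under 0.05). Of all 31042 probe sets 12394 passed that unadjusted threshold in jejunum at 72 h and 6189 at 6 h.

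Arrdc3 and N4bp2l1 moved in opposite directions between 24 and 72 h in jejunum. Arrdc3 was higher at 72 h by 0.51 (9.58 and 9.79 at 72 h, against 9.18 and 9.17 at 24 h; SE 0.10, limma adjusted p = 0.0112), a call lost without 72 h replicate 2 (adjusted p = 0.08). N4bp2l1 fell by 0.41 (6.73 and 6.83 at 72 h, against 7.17 and 7.22 at 24 h; SE 0.09, limma adjusted p = 0.0175), a call lost without either 72 h array. Of all probe sets 8.77% were called higher and 4.15% lower in this comparison. N4bp2l1 at 72 h lay below untreated jejunum on both arrays, at 7.03, with a log2 difference of -0.26 (limma adjusted p = 0.0648).

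In stomach no member passed at 6, 24 or 72 h, nor in the comparisons of later times with each other. Very few probe sets did: 0.0322% were called at 6 h, 0.0161% at 24 h and 0.00644% at 72 h, 0.00322% between 72 and 24 h, and 0% between 24 and 6 h. At an unadjusted p under 0.05, 5, 1 and 0 members passed at 6, 24 and 72 h, 4 passed between 24 and 6 h and 1 between 72 and 24 h. Of all 31042 probe sets 2741, 2589, 2346, 1952 and 4653 passed that threshold, in the same order. Txnip read 13.09 and 12.75 in stomach at 6 h, against 12.02 and 12.14 at 0 h, a difference of 0.84 with a 95% interval of 0.52 to 1.16 (limma adjusted p = 0.122). Arrdc3 differed by 0.64, with an interval of 0.39 to 0.89 (adjusted p = 0.128 by limma). For both the 6 h arrays lay clear of the untreated arrays, and 1 limma fit of all 30 arrays, which shares the spread between tissues, called Txnip (adjusted p = 0.00409) and Arrdc3 (adjusted p = 0.0417). That fit called 396 of all 31042 probe sets in stomach at 6 h, against 10 in the fit of stomach arrays alone. By 24 h Arrdc3 read 9.00 and 9.12, against 9.13 and 9.08 at 0 h, and the groups overlapped.

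In colon Pik3ip1 was the one member called at 6 h. Pik3ip1 (chr14:82428315-82440261) is a membrane protein that restrains phosphoinositide 3-kinase. It read 8.13 and 8.07 at 6 h, against 7.50 and 7.37 at 0 h, or 1.58-fold (log2 0.66 ± 0.10 (SE), limma adjusted p = 0.0112), where 0.2% of all probe sets were called higher. The call was lost without either untreated array and without 6 h replicate 1, the colon array whose pancreatic median was 9.34. The dim second probe set of Pik3ip1 differed by 0.01, so the 2 probe sets disagree. In jejunum Pik3ip1 differed from 0 h by -0.05 at 6 h and in stomach by 0.43, and the test of a difference between the 3 tissues gave a limma adjusted p of 0.133.

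Arrdc3 and Bcl6 did not pass in colon at 6 h, though all their 6 h arrays lay above all untreated ones. Arrdc3 read 10.38 and 10.64, against 10.04 and 9.55, a difference of 0.72 with a 95% interval of 0.30 to 1.13 (limma adjusted p = 0.121; 0.0124 in 1 fit of all 30 arrays). Bcl6 read 8.77 and 8.98, against 8.28 and 8.13, a difference of 0.67 with an interval of 0.23 to 1.10 (limma adjusted p = 0.166). The 2 untreated colon arrays of Arrdc3 lay far apart themselves, with an SD of 0.35. Neither gene was called at 24 or 72 h, where 0 members passed after limma's adjustment, beside 1.14% and 1.32% of all probe sets. At an unadjusted p under 0.05, 3 and 2 members passed, beside 5196 and 5337 of all 31042 probe sets.

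Txnip fell in colon between 24 and 72 h. It read 12.22 and 12.45 at 72 h, against 13.14 and 12.94 at 24 h, a log2 difference of -0.71 (SE 0.14, limma adjusted p = 0.0182) in a comparison where 2.33% of all probe sets were called lower. The 72 h arrays include the colon array with the high pancreatic median. Without 24 h replicate 1, the array with the gastric median of 9.78, or without 72 h replicate 1 the call was lost. In colon no member was called between 24 and 6 h, where 0.564% of all probe sets were. At an unadjusted p under 0.05, 5 members passed there, beside 3232 of all 31042 probe sets.

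Whether a response differed between the 3 tissues was tested by limma's F test of the interaction in 1 fit of all 30 arrays. Arrdc3 at 72 h was the only member to pass, with differences from 0 h of 0.17 in stomach, 1.01 in jejunum and 0.19 in colon (adjusted p = 0.0457), where 2.28% of all probe sets were called. The 72 h arrays include the stomach and the colon array with high pancreatic medians. The call was lost in 8 of the 12 fits that each left out one array, and also under quantile normalization (adjusted p = 0.0755). At 6 and 24 h 0 members passed after limma's adjustment, beside 0.251% and 0.229% of all probe sets. At an unadjusted p under 0.05, 5 and 1 members passed, beside 4256 and 4088 of all 31042 probe sets. For Bcl6 at 6 h the differences were 0.56 in stomach, 1.46 in jejunum and 0.67 in colon (adjusted p = 0.168 by limma), so a difference between tissues was not shown for it in this fit. With only the arrays compared in the fit, limma's adjusted p for Bcl6 at 6 h was 0.0111, so its call depends on which arrays enter. That smaller fit called 792 of all 31042 probe sets at 6 h, against 78 in the fit of all 30 arrays. Both fits treat tissues as independent although they came from the same rats.

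The genes of the receptor and of Foxo1 were not called at 6, 24 or 72 h in any tissue, and 1 h was not tested. Insr, the insulin receptor (chr12:5991135-6129275), differed from 0 h by -0.22 to 0.15 over the 9 comparisons of 6, 24 and 72 h. Its second probe set, about as bright, ranged more widely, from -0.38 in colon at 6 h to 0.39 in jejunum at 6 h, and was not called either. Both probe sets of Insr are dim, with means of 6.78 and 6.72 over the 30 arrays, below the median of 7.03 over all probe set means. Foxo1 (chr2:138462974-138541420) differed by -0.26 to 0.24 over the same comparisons. At 1 h in stomach, outside these comparisons, Foxo1 differed from 0 h by -0.37, with both arrays below both untreated arrays. Its dimmer probe sets differed there by -0.12 and 0.11. The group means of Insr spanned 6.47 ± 0.01 in stomach at 72 h and 7.10 ± 0.27 in untreated colon (SD, n = 2 arrays each), and those of Foxo1 7.32 ± 0.03 in stomach at 1 h and 8.01 ± 0.07 in colon at 6 h. For Foxo1 most neighbours in this order overlapped; the top and the bottom group each lay clear of the next.

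Irs2 (chr16:85190310-85214543) had its highest group mean in jejunum at 6 h, 8.92 ± 0.02, and its lowest in stomach at 72 h, 7.92 ± 0.08 (SD, n = 2 arrays each). Its 6 h arrays lay above the untreated arrays in all 3 tissues, by 0.53 in stomach, 0.57 in jejunum and 0.38 in colon, without passing limma's adjusted test in any. At 24 h its means were back near 0 h in stomach (difference -0.04) and jejunum (-0.01), and 0.32 above it in colon. One jejunum array at 24 h, replicate 1 with the high GAPDH gap, read 8.10 and the other 8.59.

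Depp1 (chr4:151583105-151585455) had its highest mean in stomach at 1 h, 8.26 ± 0.14, and its lowest in untreated colon, 7.11 ± 0.06 (SD, n = 2 arrays each). After 1 h it was not called in any tissue: at 6 h the differences were 0.28 in stomach, -0.09 in jejunum and 0.32 in colon. Every later colon array of Depp1 lay above both untreated colon arrays, with differences of 0.35 at 24 h and 0.38 at 72 h. All 3 colon comparisons share the same 2 untreated arrays.

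Before treatment the tissues already differed in these genes, and untreated jejunum stood lowest for several of them. Some of the genes were chosen as high at 1 h against these same 0 h arrays, which favours low untreated values, so the calls between untreated tissues are not independent of the choice. In untreated jejunum 5 genes were lower than in untreated colon and 2 higher; 19.9% of all probe sets were called lower and 25.8% higher. Txnip read 10.87 and 10.61 in jejunum, against 12.71 and 12.58 in colon, which is 3.75-fold higher in colon (log2 -1.91 ± 0.14 (SE), limma adjusted p = 4.35e-09). Bcl6 (-1.31), Arrdc3 (-1.12), Foxo3 (-0.94) and Insr (-0.45) were also lower in jejunum, all as log2 differences. N4bp2l1 and Depp1 were higher in jejunum, by 0.61 and 0.39. The call of Depp1 was lost on leaving out any of the 4 arrays and that of Insr without untreated colon replicate 2.

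Untreated stomach was higher than untreated jejunum in 5 genes and lower in none, where 17.3% of all probe sets were called higher. Bcl6 read 8.29 and 8.41 in stomach, against 6.86 and 6.93 in jejunum, or 2.74-fold (log2 1.45 ± 0.18 (SE), limma adjusted p = 3.46e-06). Txnip was higher by 1.35, Foxo3 by 0.74, N4bp2l1 by 0.62 and Arrdc3 by 0.44, the last lost on leaving out any array. Against untreated colon, stomach was higher in N4bp2l1 (1.23) and Depp1 (0.64) and lower in Arrdc3 (-0.68), Txnip (-0.56), Insr (-0.51) and Irs2 (-0.41), where 18% of all probe sets were called higher and 15.1% lower. The call of Irs2 was lost without untreated colon replicate 1 or untreated stomach replicate 2 (highest adjusted p = 0.168 by limma), and that of Arrdc3 without untreated colon replicate 1 (adjusted p = 0.059 by limma).

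Smooth muscle markers ran beside these tissue differences. Of 5 markers 4 were called lower in untreated jejunum than in untreated colon and 5 higher in stomach than in jejunum. Of 4 endothelial markers 2 were lower in jejunum than in colon and 4 higher in stomach than in jejunum. The array medians of the smooth muscle markers at 0 h were 11.97 and 12.53 in stomach, 10.12 and 10.29 in jejunum and 12.21 and 12.08 in colon. The part of smooth muscle and endothelium in the levels of Txnip, Bcl6, Arrdc3 and Foxo3 was not tested. The dim second probe set of Foxo3 ran the other way, at 0.24 for jejunum against colon and -0.22 for stomach against jejunum, so the direction for Foxo3 depends on the probe set. The second probe set of Insr gave a larger difference in the same direction, -1.49 for jejunum against colon and -1.26 for stomach against colon.

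**Figure D3:**
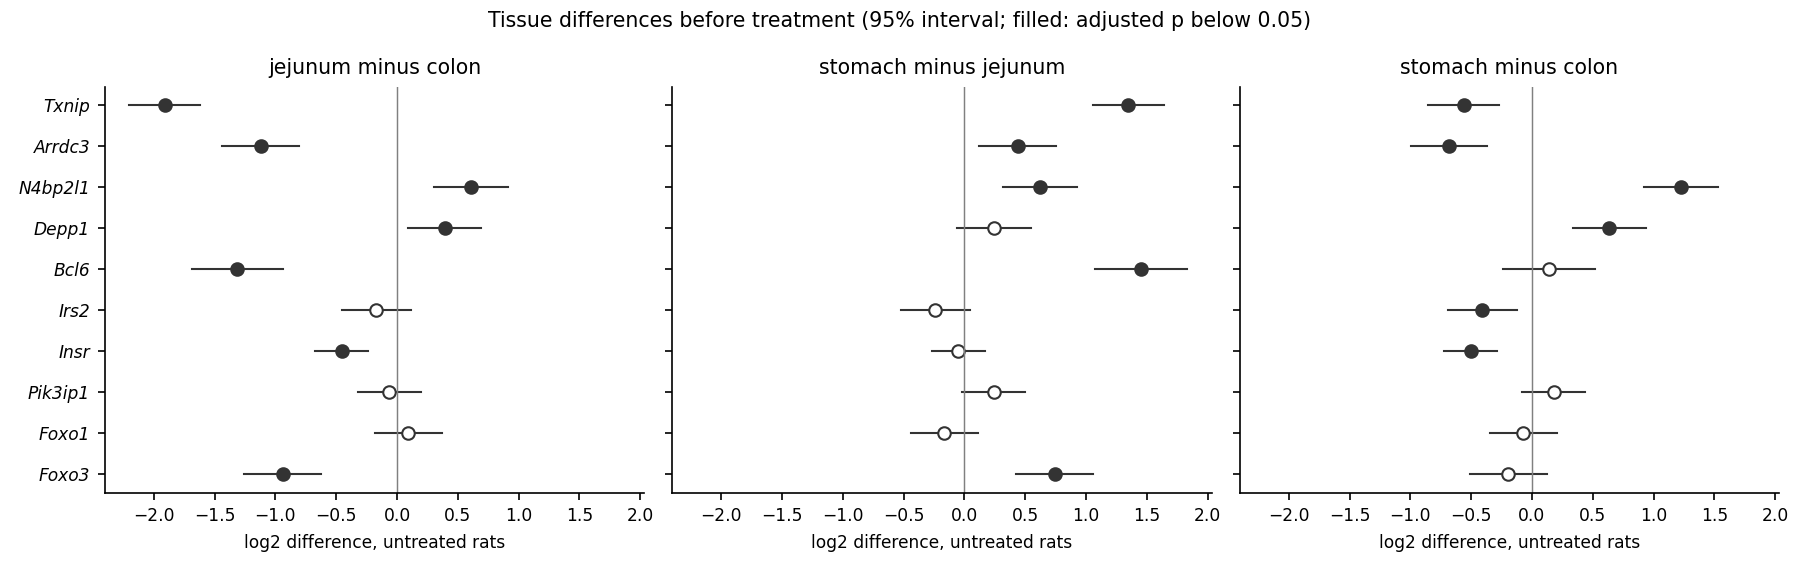
Log2 difference between untreated tissues (x axis) for each of the 10 genes (y axis), as jejunum minus colon, stomach minus jejunum and stomach minus colon; points are limma estimates with 95% intervals without adjustment, filled where the adjusted p is below 0.05. Txnip, Bcl6, Arrdc3 and Foxo3 lay left of 0 for jejunum minus colon and right of 0 for stomach minus jejunum.

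The order of all 15 groups put untreated jejunum last for Txnip (10.74 ± 0.18), Arrdc3 (8.67 ± 0.08), Bcl6 (6.90 ± 0.05) and Foxo3 (9.10 ± 0.10; SD, n = 2 arrays each). The choice of genes by the 1 h against 0 h difference partly fixes this low rank. For Txnip, Arrdc3 and Bcl6 its arrays lay clear of the next group, and for Foxo3 they overlapped jejunum at 1 h. At the top stood colon at 24 h for Txnip (13.04 ± 0.14), colon at 6 h for Arrdc3 (10.51 ± 0.18) and stomach at 6 h for Bcl6 (8.91 ± 0.07). Of these only Arrdc3 in colon at 6 h lay clear of its neighbour. N4bp2l1 ran from 7.92 ± 0.11 in jejunum at 6 h to 6.40 ± 0.07 in colon at 1 h, with all 5 colon groups at the bottom. Pik3ip1 ran from 8.10 ± 0.05 in colon at 6 h to 7.26 ± 0.03 in jejunum at 72 h.

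The genes whose arrays ran most like those of Bcl6, Txnip, Irs2 and Foxo1 were found by Pearson's r over the 30 arrays after subtracting each tissue's mean. The arrays share rats and the 0 and 1 h arrays that chose the genes, so r is a description. Bcl6 ran most like Fkbp5, a co-chaperone that glucocorticoids induce (r = 0.88), then Arrdc3 (0.86), Tspyl1 (0.80) and Ncoa4 (0.80). Within tissues r for Bcl6 and Fkbp5 was 0.62 in stomach, 0.96 in jejunum and 0.91 in colon, over 10 arrays each. For Arrdc3 and Bcl6, both members, it was 0.80, 0.90 and 0.84.

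Txnip ran most like Klf11 (0.86), Tsc22d3 (0.83), Klf9 (0.81) and Klf2 (0.76). Klf11, Klf9 and Klf2 are Krüppel-like factors, and Tsc22d3 and Klf9 are known glucocorticoid-induced genes. Irs2 ran most like C13h1orf116 (0.83), Inhbb (0.79), Klf11 (0.77) and Sgk1 (0.77). Foxo1 had weaker likenesses, Fam185a (0.75), Mtmr9 (0.73), Lrrn4 (0.71) and Fam228b (0.71). Between Foxo1 and Txnip r was 0.03, and between Foxo1 and Foxo3 0.11.

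**Figure D4:**
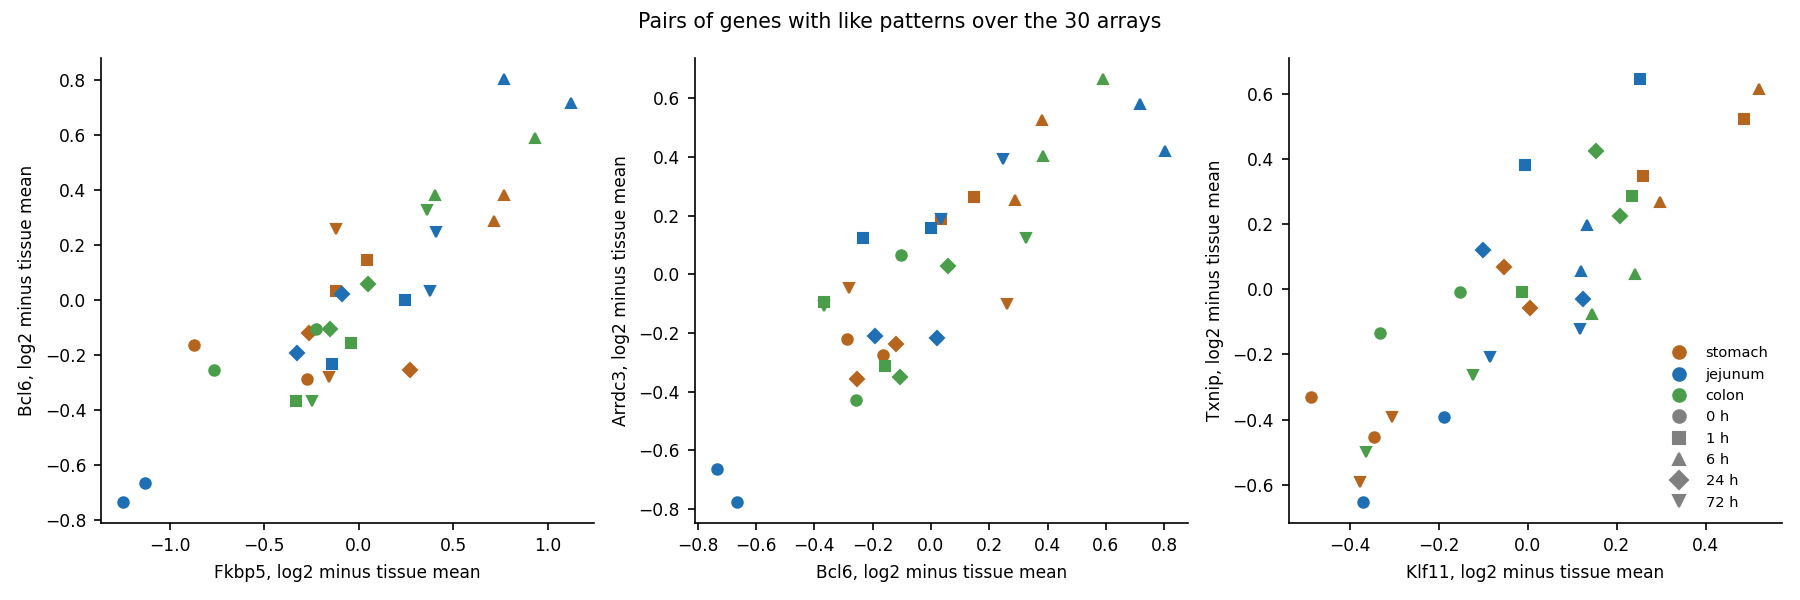
Log2 signal minus the tissue mean for 3 pairs of genes, Bcl6 against Fkbp5, Arrdc3 against Bcl6 and Txnip against Klf11 (both axes in log2 units); each point is 1 of 30 arrays, coloured by tissue and shaped by time. The untreated jejunum arrays lie at the low end and the 6 h jejunum arrays at the high end for Bcl6 with Fkbp5.

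The wider pathway was read through 6 lists of genes that do not include the members. In jejunum at 6 h 0 of 25 measured genes from the insulin receptor family to Akt were called by limma and 5 passed at an unadjusted p under 0.05, with a median log2 difference of 0.07. Of all 31042 probe sets 6189 passed that unadjusted threshold. Igf1r differed by -0.13, Irs1 by 0.05, Akt1 by 0.34 and Foxo4 by -0.14. Of 25 other FoxO targets 3 were higher and 0 lower, with a median of 0.12, beside 2.3% of all probe sets called higher and 1.19% lower: Ccng2, an unconventional cyclin, by 0.71 (10.65 at 6 h, against 9.94 at 0 h), Klf6 by 0.47 and Trim63, a ubiquitin ligase of muscle wasting, by 0.46. Pdk4, which holds back glucose oxidation in fasting, differed by 0.70 and Igfbp1 by -0.01, neither called. The 10 members had a median of 0.43 at this time, beside -0.02 for all probe sets.

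Of 9 glucocorticoid-induced genes 3 were higher in jejunum at 6 h and 0 lower, with a median of 0.53, beside the same 2.3% and 1.19% of all probe sets. Fkbp5 averaged 9.57 at 6 h and 7.43 at 0 h (log2 2.14 ± 0.15 (SE), limma adjusted p = 0.00202). The metallothionein Mt2A was higher by 1.67 and Cebpd, a transcription factor of acute stress, by 1.48, while Tsc22d3 differed by 0.53 (limma adjusted p = 0.0872). Fkbp5 and Cebpd were lower at 24 h than at 6 h (-1.15 and -1.17), in the comparison that also called Bcl6, Arrdc3 and N4bp2l1 lower. Of 5 fasting fuel genes, 12 alpha-arrestin and MondoA genes and 9 lipid synthesis genes that insulin raises, 0 were called by limma in jejunum at 6 h, and 0, 5 and 3 passed at an unadjusted p under 0.05. Among all 31042 probe sets 6189 passed that unadjusted threshold. Arrdc4, an alpha-arrestin closely related to Txnip, differed by 0.26.

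**Figure D5:**
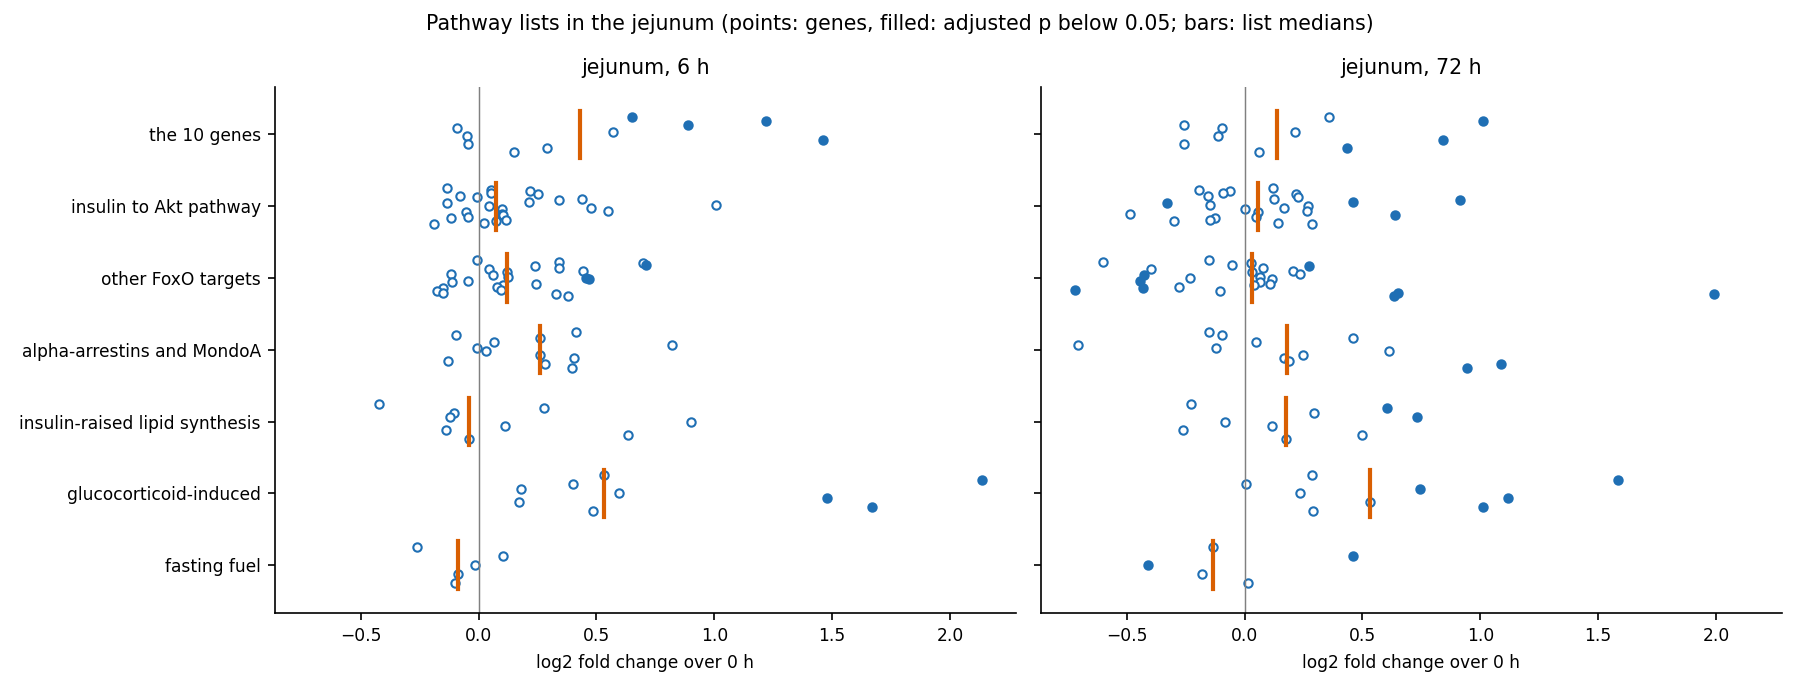
Log2 fold change over 0 h (x axis) of the 10 genes and of the genes of 6 lists (y axis) in jejunum at 6 h and 72 h; points are genes, filled where the limma adjusted p is below 0.05, and bars are list medians. At 6 h the filled points all lie right of 0; at 72 h they lie on both sides for 3 lists.

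At 72 h in jejunum genes of the lists were called in both directions, as were 11.9% (higher) and 12% (lower) of all probe sets. Of the insulin to Akt genes 3 were higher, Akt1 by 0.92 (10.12 at 72 h, against 9.21 at 0 h; limma adjusted p = 0.000945), Grb10, an adaptor that dampens receptor signalling, by 0.64, and Akt2 by 0.46. Foxo4 was lower (-0.33). Of the other FoxO targets 4 were higher and 4 lower, with a median of 0.03, so 8 of 25 were called, beside 23.9% of all probe sets in either direction. The protease Ctsl was higher by 1.99, Eif4ebp1 by 0.65, Zfand5 by 0.63 and Bcl2l11, a death-promoting Bcl2 relative, by 0.28, whereas Sesn1 (-0.72), Mxi1 (-0.44), Cat, which encodes catalase (-0.43), and Cited2 (-0.43) were lower. From the remaining lists only some higher genes are named here, though lower genes were called among those lists too. Hexokinase 2 (Hk2) and the glucose transporter Slc2a1 were higher by 1.09 and 0.95, and the lipid synthesis genes Acly and Fasn by 0.73 and 0.60. Fkbp5 was higher by 1.58 and Ddit4, an inhibitor of mTOR signalling, by 0.74.

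In stomach and colon few genes of the lists passed at 6 h, and few of all probe sets did. In stomach they were 1 of 25 other FoxO targets, 1 of 5 fasting fuel genes and 1 of 9 glucocorticoid-induced genes. There 0.0322% of all probe sets were called. In colon they were 1 of 25 other FoxO targets, 1 of 25 insulin to Akt genes and 2 of 9 glucocorticoid-induced genes. There 368 of all 31042 probe sets were called. In stomach Pdk4 was higher by 2.29 at 6 h (11.20, against 8.92 at 0 h; limma adjusted p = 0.00259) and by 1.97 at 24 h, and Angptl4, a lipase inhibitor of fasting, by 1.89, 2.19 and 1.48 at 6, 24 and 72 h. In colon Sgk1, a kinase related to Akt, was higher by 0.84 at 6 h and 1.00 at 24 h, and Trim63 by 0.82 at 6 h. Mt2A was higher at 6 h by 2.94 in stomach and 2.41 in colon. Where Txnip fell in colon between 24 and 72 h, Arrdc4 was lower too, with a difference of -1.05 (8.67 at 72 h, against 9.72 at 24 h; limma adjusted p = 0.0252). Mlxipl, which encodes ChREBP, was lower (-0.82) and Hk2 higher (1.38). These differences use the 72 h colon arrays, among them the array with the high pancreatic median.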

How the data were processed

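RNA of stomach, jejunum and colon, pooled from 3 rats per array, was measured on Affymetrix Rat 230 2.0 arrays, 2 for each of 15 groups taken from the sample titles. Values are log2 signals deposited by the authors, which RMA produced, per the submitters' processing notes; the sources used here do not state its version or whether the arrays were normalized jointly. They ran from 3.53 to 14.32, with array medians of 6.97 to 7.06, and were not rescaled. The 57 control probe sets of the array were dropped from its 31099; of the remaining 31042, 20826 carry 1 gene symbol, 436 several and 9780 none.

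The 10 genes, the pathway lists and the marker lists were chosen with earlier results of these data known. For each tissue limma 3.58.1 (R 4.3.3) was fitted to its 10 arrays with the 5 times as groups; p-values are two-sided and adjusted by Benjamini-Hochberg over all 31042 probe sets, with a threshold of 0.05. Tissue comparisons came from 1 fit of all 30 arrays. The limma step was tested on simulated data. The text names the 10 members; of each list at most 6 genes past the test in a comparison, by smallest adjusted p; Pdk4, Tsc22d3, Fkbp5, Igfbp1, Igf1r, Irs1, Akt1, Foxo4 and Arrdc4 in any case; and the 4 likest genes of Txnip, Irs2, Foxo1 and Bcl6. Alternatives were dropping dim probe sets, quantile normalization, a variance trend with robust variances, 1 fit of all arrays, only the arrays compared, a replicate block, leaving out each array, and the next brightest probe set. Gene positions and promoters are from RefSeq on GRCr8; probe-level files were not used here.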

Additional observations from a re-analysis of the deposited data

Results flagged for a closer look

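The response of Arrdc3 at 72 h differed between the tissues by limma's F test of the interaction (adjusted p = 0.0457), with log2 differences from 0 h of 0.17 in stomach, 1.01 in jejunum and 0.19 in colon. In this test 2.28% of all probe sets were called. The call was lost in most fits that left out one array and under quantile normalization. The 72 h arrays include the stomach and the colon array with high pancreatic medians. In 3 further cases both arrays of a group moved one way in one tissue and both the other way in another. These differences between tissues were not tested. The share of all probe sets with such opposite moves is not given here, so nothing is read from the number of cases. Between 24 and 6 h Txnip differed by 0.34 in colon and by -0.44 in stomach. Between 24 and 6 h Insr differed by 0.14 in colon and by -0.07 in jejunum. Between 72 and 24 h Foxo3 differed by 0.17 in jejunum and by -0.32 in colon. No one of these 6 changes passed limma's adjusted test within its tissue.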

How the results depend on the processing

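The calls of Bcl6 and Arrdc3 in jejunum at 6 and 72 h held under each setting tried that gave them a value. In 1 fit of all 30 arrays the members called were 2 rather than 0 in stomach at 6 h, 5 rather than 4 in jejunum at 6 h, 2 rather than 1 in colon at 6 h, 1 rather than 0 in colon between 24 and 6 h, and 1 rather than 2 in jejunum between 72 and 24 h. Of all probe sets that fit called 396 rather than 10, 790 rather than 1082 and 737 rather than 368 in the 3 comparisons at 6 h. Between 24 and 6 h in colon it called 372 rather than 175, and between 72 and 24 h in jejunum 3270 rather than 4010. With the next brightest probe set of each gene that has one, 0 were called in colon at 6 h, 1 in jejunum between 72 and 24 h, 3 rather than 5 for untreated stomach against untreated jejunum, and 0 rather than 1 for the tissue difference at 72 h; Foxo3 turned to -0.01 in jejunum at 72 h, 0.24 for untreated jejunum against colon and -0.22 for untreated stomach against jejunum. The tissue difference at 72 h was also 0 under quantile normalization, under trend and robust variances and with only the arrays compared. These settings called 584, 627 and 452 of all probe sets there, rather than 708. With only the arrays compared 1 member was called at 6 h (Bcl6, adjusted p = 0.0111 by limma), beside 792 rather than 78 of all probe sets. The median at 1 h in stomach, 0.36, became 0.40 without dim probe sets and 0.17 with the next probe set, and that in colon, 0.02, became 0.12 after quantile normalization and 0.10 with the next probe set. Leaving out one array at a time gave medians at 1 h of 0.35 to 0.42 in stomach, 0.29 to 0.37 in jejunum and 0.04 to 0.13 in colon. Each such fit leaves 1 array in a group, so counts of members called in them are not given. The calls that were lost are named with each gene above. A replicate block gave 3 members rather than 4 in jejunum at 6 h (Txnip, limma adjusted p = 0.0511) and moved no other count of members. Of all probe sets the block called 604 rather than 1082 there, and 27 rather than 127 in jejunum at 24 h. Different rats were killed at each time, and deviations of same-numbered arrays of different times in a tissue correlated at -0.58 to 0.43 (median 0.01). Between tissues at one time, where the same rats were used, they correlated at -0.22 to 0.50 (5 of 15 pairs over 0.1, among them all 3 pairs at 24 h). The labels do not say whether a number marks the same pool in each tissue, and a block of time and number together was not fitted. The causes were not tested. With 2 pools in each group, changes smaller than the spread between pools cannot be seen, and stomach gave so few calls over all probe sets that an absence of calls there says little.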
